A study of Mus musculus with 109 samples.

Results

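The 10 circadian clock genes Arntl, Per1, Per2, Per3, Cry1, Cry2, Nr1d1, Nr1d2, Dbp and Ciart were described in whole mouse retinas after intravitreal injection of inflammatory cytokines. They were taken from the 37315 genes of the count table by the Ensembl identifiers of their symbols, a list drawn up with earlier results of these data known, and all 10 were found and passed the filter on low counts. In all, 109 retinas of 64 mice were sequenced as polyA RNA, and 45 mice gave both eyes. In WT (C57BL/6J) mice of batch 1, 31 retinas received PBS, 8 TNF, 9 IL1A and 10 IL1A+TNF and were collected at day 2. Further WT retinas of batch 1 received PBS or TNF and were collected at day 14 (7 PBS retinas of 6 mice, and 6 TNF retinas) or day 35 (6 PBS and 9 TNF). Days follow the time label of each retina, while the protocol text shared by all samples speaks of harvest at day 2 alone. Batch 2 held only day 2 retinas, with 5 PBS and 6 IL1A+TNF from WT mice and 6 PBS and 6 IL1A+TNF from Sarm1-/- mice. The Sarm1-/- mice were deficient in Sarm1 throughout the body, so these retinas do not separate its loss in neurons from its loss elsewhere. Mice were 2 to 4 months old by the abstract of the paper, while its methods give 2 to 6 months. The eye opposite to a treated eye received PBS, so that PBS retinas were injected eyes of anesthetized mice and not untouched ones. Mice were kept on a light-dark cycle, and the hour of collection was not given in the sources used here. Total counts ranged from 30014757 to 79064488 per retina (median 39374202), and batch 2 was the deeper, from 42875980.

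The circadian clock is a loop of transcription and feedback that runs in nearly every cell, and the retina holds a clock of its own that can cycle apart from the brain. BMAL1, the product of Arntl, pairs with CLOCK or NPAS2 and binds E-box sequences to switch on the Per and Cry genes, whose proteins return to repress it. In a second loop the nuclear receptors encoded by Nr1d1 and Nr1d2 repress Arntl through RORE sequences, while DBP activates genes through D-boxes and the protein of Ciart represses BMAL1. In tissues sampled around the clock, Arntl transcript peaks at another time of day than Nr1d1, Dbp and the Per genes, so collection time alone can move these genes in different directions. Retinal clocks are known for timing melatonin synthesis, photoreceptor renewal and light sensitivity.

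Promoter windows of the members are shown because E-boxes, D-boxes and ROREs are the sequences through which clock proteins act on each other's genes. Windows ran from 250 bases before to 50 after each RefSeq start on GRCm38.p6, and 9 of the 10 members had a window, with 11 windows in all (none for Per2). Motifs were searched on both strands over 32851 windows of 27025 genes. The E-box CACGTG was found in 7.15% of all windows, the variant E-box CACGTT in 4.68%, the D-box TTATGTAA in 0.938%, the RORE TAGGTCA or TGGGTCA in 6.45%, and the CRE TGACGTCA in 1.79%. Among the members, the E-box was in windows of Per1, Cry1 and Ciart, the variant E-box in those of Cry1, Cry2 and Nr1d1, the D-box in that of Per3, and the RORE in a window of Arntl, while no member window held the CRE. The windows below belong to the members with an E-box (Per1, Cry1 and Ciart) and with D-boxes (Per3), each read 5′ to 3′ on the strand of its gene with those motifs in capitals. A match is a stretch of letters, and binding was not measured.
Per1, chr11:69098699-69098998, plus strand, a start inside the annotated gene, E-box in capitals: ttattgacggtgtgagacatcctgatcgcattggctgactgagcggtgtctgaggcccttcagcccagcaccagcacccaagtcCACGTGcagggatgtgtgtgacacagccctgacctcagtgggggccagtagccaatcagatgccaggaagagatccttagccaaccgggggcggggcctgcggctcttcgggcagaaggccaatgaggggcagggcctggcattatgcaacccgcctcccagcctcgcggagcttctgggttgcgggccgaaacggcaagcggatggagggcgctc
Cry1, chr10:85185005-85185304, minus strand, E-box in capitals: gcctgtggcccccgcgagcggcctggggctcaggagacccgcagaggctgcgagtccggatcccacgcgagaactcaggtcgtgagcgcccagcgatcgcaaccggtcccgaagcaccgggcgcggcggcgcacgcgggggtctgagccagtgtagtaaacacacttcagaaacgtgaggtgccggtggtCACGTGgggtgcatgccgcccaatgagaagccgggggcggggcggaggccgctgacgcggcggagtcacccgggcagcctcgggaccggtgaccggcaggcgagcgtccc
Ciart, chr3:95882179-95882478, minus strand, E-boxes in capitals: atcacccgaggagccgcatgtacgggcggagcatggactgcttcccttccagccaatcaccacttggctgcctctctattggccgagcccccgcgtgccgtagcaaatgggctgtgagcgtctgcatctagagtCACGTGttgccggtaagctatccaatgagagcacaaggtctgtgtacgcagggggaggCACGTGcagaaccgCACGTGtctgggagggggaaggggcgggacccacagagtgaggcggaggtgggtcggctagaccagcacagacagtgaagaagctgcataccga
Per3, chr4:151044616-151044915, minus strand, D-boxes in capitals: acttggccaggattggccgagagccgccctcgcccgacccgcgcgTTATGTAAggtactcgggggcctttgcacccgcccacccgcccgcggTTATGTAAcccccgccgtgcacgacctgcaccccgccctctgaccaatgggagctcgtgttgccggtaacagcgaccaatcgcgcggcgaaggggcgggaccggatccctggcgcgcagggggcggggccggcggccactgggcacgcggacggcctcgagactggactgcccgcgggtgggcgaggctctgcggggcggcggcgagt
Counted from the start of transcription, the E-box of Per1 began at −166 and that of Cry1 at −60. Ciart held 3 E-boxes, at −116, −58 and −44, and the D-boxes of Per3 were at −205 and −158.

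Levels are given in CPM, the count of a gene scaled to its library total, with the total adjusted for composition by TMM factors, and genes are set against each other only as CPM per kilobase of exon. In the 31 WT PBS retinas at day 2, the repressors of the second loop were the most abundant members, with Nr1d1 at 57.6 ± 4.26 CPM per kilobase and Nr1d2 at 54.5 ± 3.19 (SD, n = 31). Nr1d1 was above Nr1d2 in 23 of 31 retinas, so the order of these neighbours varied. Dbp followed at 23.2 ± 2.27 CPM per kilobase, then Cry2 at 19.4 ± 0.914, Cry1 at 17.3 ± 1.61, Per1 at 16.5 ± 1.73 and Per3 at 16.2 ± 2.50. The ranges of Cry1, Per1 and Per3 overlapped, with Cry1 above Per1 in 20 of 31 retinas and Per1 above Per3 in 18 of 31. Arntl lay below them at 12.99 ± 0.666 CPM per kilobase, and Ciart at 7.77 ± 0.974 and Per2 at 6.89 ± 0.741 were the lowest. Exons of Cry2, Nr1d1 and Dbp overlap antisense genes of the table (D930015M05Rik over 295 bases, Thra over 263 and Sphk2 over 539), and the strand setting of the counting was not stated, so reads in these stretches cannot be assigned with certainty.

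The first comparison asked how inflammatory cytokines changed the clock genes at day 2. All 10 members fell in IL1A+TNF retinas, from both arms of the loop, and the changes were modest. With library totals in place of TMM factors, 7 of the 10 stayed called. The largest were in Per3, which fell by 21.5%, and in Ciart, which fell by 21.3%, and the smallest was in Nr1d2, which fell by 8.73%. A gene was called changed at an FDR (Benjamini-Hochberg adjusted p) under 0.05 in limma over 19548 genes. The same contrast called 50.4% of all genes tested and 25.5% as lower, against 10 of 10 members lower, and the median log2 fold change was −0.21 over the members and −0.02 over all genes. In whole retinas, a loss of cells that express a gene and less RNA per cell cannot be told apart.

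**Figure D1:**
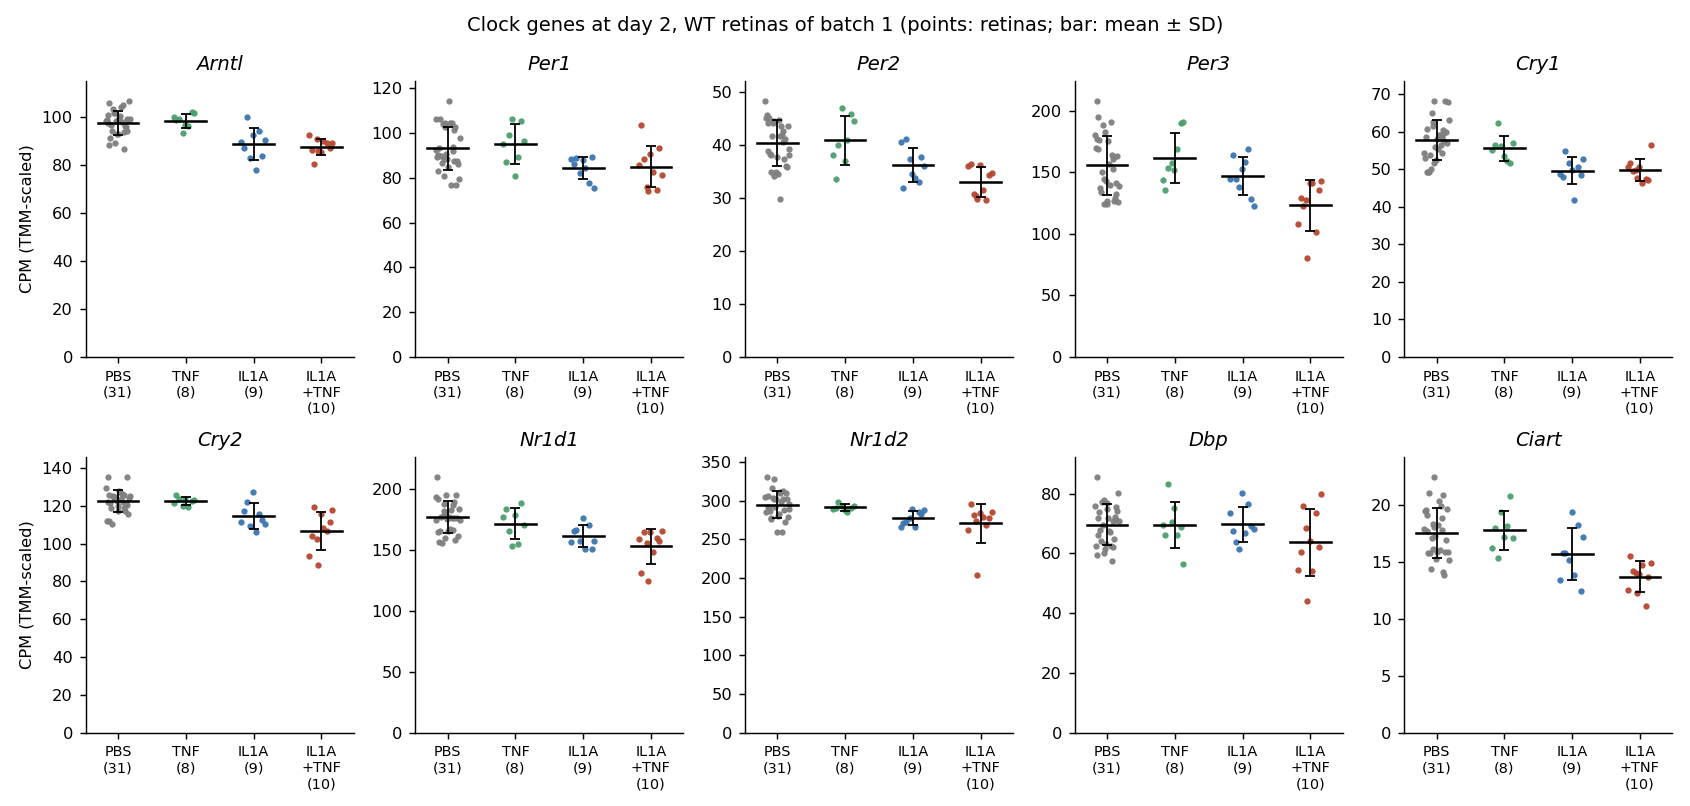
Level of each clock gene in CPM (y axis, from 0) in single WT retinas of batch 1 at day 2 by treatment (x axis, number of retinas in parentheses), with mean ± SD as black bars. The mean of the IL1A+TNF retinas is below that of the PBS retinas for each gene, with Ciart at 13.7 against 17.6 CPM and Per3 at 123 against 156 CPM, and the groups overlap.

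Arntl, the activator, had 86.8 CPM in the lowest of the 31 PBS retinas, a median of 98.6 and a highest value of 106.6. In the 10 IL1A+TNF retinas it ranged from 80.7 to 92.6 CPM with a median of 88.0. All 10 treated retinas lay below the PBS median and 4 lay below every PBS retina, and the log2 fold change was −0.17 (SE 0.0287, limma FDR 2.1e-06).

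Among the Per genes, Per3 stood out for its spread. Its level ranged from 124.3 to 207.5 CPM in PBS retinas (median 152.3) and from 80.4 to 143.2 CPM after IL1A+TNF (median 128.2), and the log2 fold change was −0.35 (SE 0.0766, limma FDR 0.000116). Per2, which in many tissues responds to both light and hormones, ranged from 29.8 to 48.2 CPM in PBS retinas (median 41.0) and from 29.6 to 36.5 CPM after IL1A+TNF (median 32.9). The ranges of Per3 and Per2 overlapped, with 4 and 1 of the 10 treated retinas below every PBS retina, and the log2 fold change of Per2 was −0.30 (SE 0.0542, limma FDR 5.6e-06). Per1, the member best known for rapid induction, changed least among the Per genes, with medians of 90.7 CPM (76.7 to 114.1) after PBS and 84.2 CPM (74.2 to 103.6) after IL1A+TNF. Its log2 fold change was −0.14 (SE 0.0499, limma FDR 0.0179). Without TMM factors the call of Per1 was lost (−0.06, FDR 0.303), and it was also lost without the mouse of IL1A+TNF replicate 2 (FDR 0.0520) or 3 (FDR 0.0609).

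The Cry genes encode the main repressors of BMAL1, and both fell. Cry2 ranged from 110.3 to 135.2 CPM in PBS retinas (median 123.4) and from 88.7 to 119.4 CPM after IL1A+TNF (median 107.6), with a log2 fold change of −0.21 (SE 0.0303, limma FDR 5.7e-08). It was the member whose groups overlapped least, since 6 of the 10 treated retinas lay below every PBS retina. Cry1 ranged from 49.3 to 68.0 CPM after PBS (median 57.98) and from 46.3 to 56.5 CPM after IL1A+TNF (median 49.7), with a log2 fold change of −0.22 (SE 0.0420, limma FDR 1.3e-05). All 10 treated retinas were below the PBS median of Cry1 and 4 were below every PBS retina.

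Nr1d1 and Nr1d2, which repress Arntl, fell together with it. Nr1d1 went from a PBS median of 176.4 CPM (155.7 to 210.0) to 158.4 CPM after IL1A+TNF (125.0 to 165.6), with a log2 fold change of −0.21 (SE 0.0395, limma FDR 6.4e-06). Nr1d2 went from 295.2 CPM (259.1 to 330.3) to 277.9 CPM (204.2 to 295.3), with a log2 fold change of −0.13 (SE 0.0322, limma FDR 0.000482). For Nr1d1 all 10 treated retinas were below the PBS median, and for Nr1d2 1 was below every PBS retina. Without TMM factors the call of Nr1d2 was lost (−0.06, FDR 0.116).

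Ciart, the protein of which represses BMAL1, ranged from 13.8 to 22.4 CPM in PBS retinas (median 17.7) and from 11.1 to 15.5 CPM after IL1A+TNF (median 14.0), with a log2 fold change of −0.35 (SE 0.0598, limma FDR 1.9e-06). Dbp, which drives genes through D-boxes, ranged from 57.4 to 85.5 CPM after PBS (median 70.7) and from 43.9 to 80.0 CPM after IL1A+TNF (median 63.1). Its log2 fold change was −0.14 (SE 0.0589, limma FDR 0.0399), the weakest call of the 10, and it did not hold in edgeR (FDR 0.0596), in DESeq2 (FDR 0.0630) or without any of 5 single mice (FDR up to 0.241). No member had all 10 treated retinas below all 31 PBS retinas, which 0.338% of the genes tested did.

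Retinal cell markers moved in the same retinas, and their part in the fall of the clock genes was not tested. The summed level of 5 rod markers had a median of 41962 CPM after PBS and 22461 CPM after IL1A+TNF, with 4 of 5 called lower. Cone markers went from 784 to 203 CPM (4 of 4 lower), bipolar markers from 1169 to 954 CPM (3 of 4), amacrine markers from 594 to 489 CPM (3 of 3) and retinal ganglion cell (RGC) markers from 453 to 374 CPM (4 of 5). Müller glia markers went from 2277 to 1294 CPM, with 2 of 3 lower and Slc1a3 higher. Pigment epithelium markers went from 36.4 to 13.4 CPM, with 3 of 4 lower (Ttr, Rpe65 and Lrat). Neutrophil and monocyte markers, led by Lyz2, rose from 40.7 to 434 CPM (5 of 5 higher), microglia markers from 45.04 to 89.6 CPM (3 of 4 higher), and no marker of these lists was at 0. Lens markers exceeded 100 CPM in 15 of the 109 retinas, and without those retinas the calls of Per1 (FDR 0.0714) and Dbp (FDR 0.448) were lost.

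Other genes of the clock did not all fall. Of 19 further clock genes, 5 were higher and 9 lower in IL1A+TNF retinas, where 50.4% of all genes were called. Rorb and Rora encode receptors that activate Arntl through the RORE, and on the log2 scale both fell (−0.73 for Rorb and −0.27 for Rora). Timeless rose (0.36), and Hlf, a relative of Dbp, and Btrc, which takes part in PER protein turnover, each changed by −0.27. The partners of BMAL1 are named here for that role after their values were seen. Clock was called lower (−0.10, limma FDR 0.0199), and Npas2 was not called (−0.06, limma FDR 0.469). Of 16 clock-controlled output genes tested, 3 were higher and 6 lower, among them Nampt (0.68), which makes NAD, and Aanat (−0.50), the enzyme that times melatonin synthesis. Aanat was near the floor, with means of 0.660 CPM after PBS and 0.474 CPM after IL1A+TNF (limma FDR 0.0349), and melatonin was not measured. Of 12 glucocorticoid-induced genes, 3 were higher, led by Mt2 (1.29) and Cdkn1a (1.16), and 4 lower, led by Ddit4 (−0.56). Of 10 early genes induced by light and handling, 6 were higher, led by Egr2 (2.23), Junb (1.14) and Fosb (0.77), and Dusp1 (−0.34) was the 1 that was lower.

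IL1A alone changed fewer members and TNF alone none, and both were compared with the same 31 PBS retinas as IL1A+TNF. After IL1A, 7 of 10 members were lower, where 21.4% of all genes were called and 9.45% were lower, and the median log2 fold change was −0.14 over the members and −0.01 over all genes. Cry1 had 41.8 to 54.8 CPM in the 9 IL1A retinas (median 49.9), and it fell the most of the members (log2 fold change −0.22, limma FDR 0.000118). Arntl ranged from 77.9 to 100.1 CPM (median 89.7), with a log2 fold change of −0.14 (limma FDR 0.000202). Both groups overlapped with PBS. Nr1d1 (−0.14, FDR 0.0106), Cry2 (−0.10, FDR 0.0171), Nr1d2 (−0.09, FDR 0.0478), Per2 (−0.15, FDR 0.0480) and Ciart (−0.16, FDR 0.0490) were also called by limma. The values were −0.13 for Per1 (FDR 0.0561), −0.08 for Per3 (FDR 0.557) and 0.00 for Dbp (FDR 0.992). The count of called members depended on single mice, since it was 3 without the mouse of IL1A replicate 8 and 4 without that of replicate 2 or 4. It was also 2 (Arntl and Cry1) with library totals in place of TMM. Cell markers moved in these retinas too, and their part was not tested. Neutrophil and monocyte markers had a median of 241 CPM (4 of 5 called higher) and microglia markers 90.1 CPM (4 of 4 higher). Rod markers had a median of 34954 CPM (4 of 5 lower), cone markers 496 CPM (4 of 4), amacrine markers 525 CPM (3 of 3), RGC markers 409 CPM (3 of 5), Müller glia markers 1391 CPM (2 of 3) and pigment epithelium markers 17.2 CPM (2 of 4).

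TNF alone gave 0 called members at day 2 with limma, edgeR or DESeq2, and 0 had an unadjusted limma p under 0.05, where 0.655% of all genes were called. Arntl had 93.2 to 102 CPM in the 8 TNF retinas (median 99.0), inside the PBS range, and its log2 fold change was 0.01 (SE 0.0311, limma FDR 0.959). The smallest FDR of a member was 0.859, for Cry1. Neutrophil and monocyte markers had a median of 188 CPM in these retinas, against 40.7 CPM after PBS. At days 14 and 35, limma called 0 members and 0 genes after TNF (0% of all genes at each day), and 0 members had an unadjusted p under 0.05. The log2 fold changes of the members lay between −0.09 (Dbp) and 0.11 (Per3) at day 14 and between −0.06 (Cry1) and 0.10 (Ciart) at day 35.

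Both eyes of a mouse share its history and time of death, so the treated eye was set against the PBS eye of the same mouse. In the 8 mice with an IL1A+TNF eye and a PBS eye at day 2, 9 of 10 members were lower in the treated eye (limma with mouse as a fixed term, where 33.9% of 20630 genes were called and 16.4% were lower). Arntl differed by −0.28 to −0.11 on the log2 scale within a mouse and was lower in the treated eye of 8 of 8 mice, with a fitted difference of −0.19 (SE 0.0367, limma FDR 0.000206). Ciart differed by −0.51 to −0.04 (fitted −0.34, FDR 0.000285), Cry2 by −0.41 to −0.07 (fitted −0.22, FDR 0.000153), and these genes, Nr1d1 and Nr1d2 were also lower in 8 of 8 mice. Per1, Per2 and Cry1 were lower in 7 of 8 mice and Per3 in 6 of 8. Dbp was the exception, with differences from −0.81 to 0.41, lower in 4 of 8 mice and with a fitted difference of −0.08 (limma FDR 0.535). Counted by mouse, between 6 and 10 members were lower in the treated eye, and all 10 were lower in 3 of the 8 mice.

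**Figure D2:**
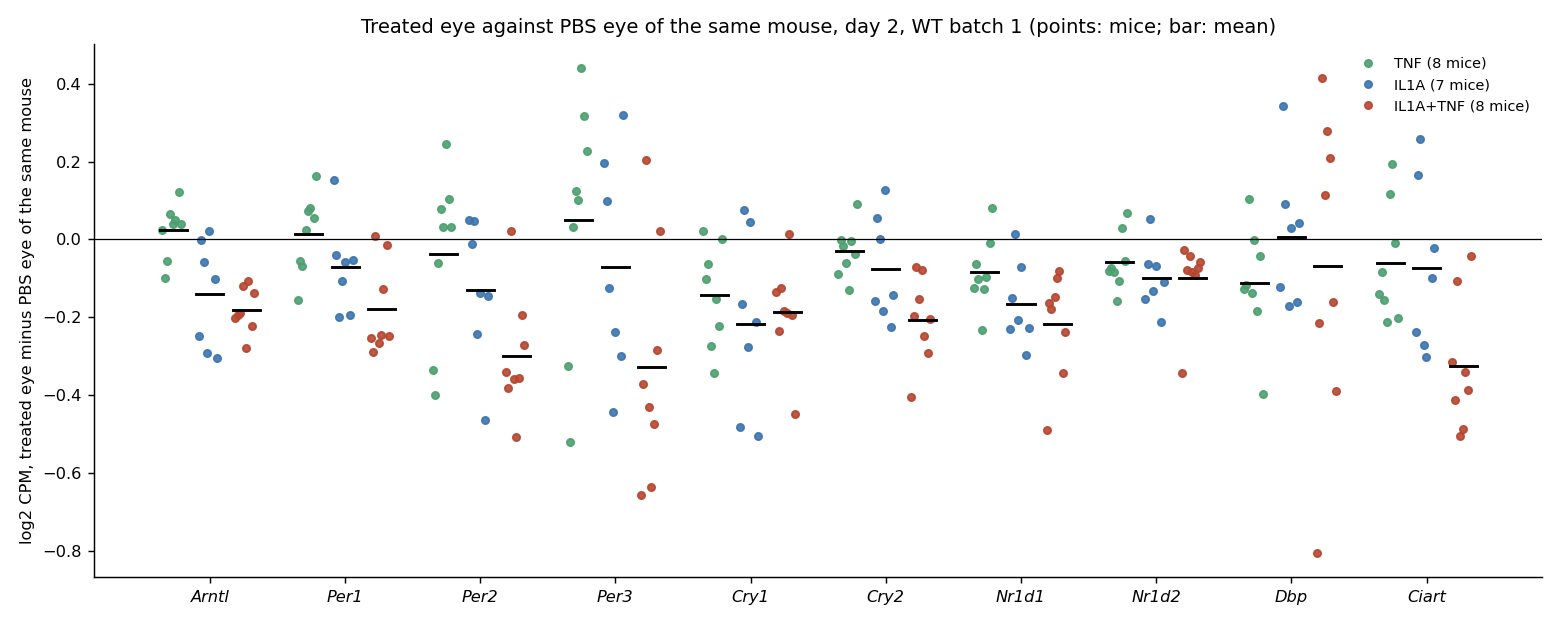
Difference in log2 CPM between the treated and the PBS eye of the same mouse (y axis) for each clock gene (x axis) at day 2, with a point per mouse, a black bar for the mean and a line at 0. IL1A+TNF points of Arntl, Cry2, Nr1d1, Nr1d2 and Ciart lie below 0 in 8 of 8 mice, while Dbp spans −0.81 to 0.41.

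In the 7 mice with an IL1A eye and a PBS eye, 3 members were lower by limma (10.1% of genes called, 3.34% lower), and these were Arntl (−0.14, FDR 0.0175), Cry1 (−0.22, FDR 0.0182) and Nr1d1 (−0.17, FDR 0.0150). With library totals in place of TMM factors, 1 member was called instead of 3. Arntl was lower in 6 of 7 mice and Cry1 in 5 of 7. In the 8 mice with a TNF eye, 0 members were called (0.107% of genes called), 1 had an unadjusted limma p under 0.05, and the smallest FDR was 0.553. Between 2 and 10 members were lower in the TNF eye of a mouse (median 6), and all 10 were lower in 1 of the 8 mice. Cry2, Nr1d1 and Dbp were lower in 7 of 8 mice, and Cry1, Nr1d2 and Ciart in 6 of 8. Per1 and Per2 were lower in 3 of 8, and Arntl and Per3 in 2 of 8.

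How far the mice themselves differed in the clock was judged from the eyes of 45 mice after the means of treatment, day, batch, genotype and sex were removed. Per1 was the member with the largest difference between mice relative to that between eyes. A moderated F test for mouse in limma called 86 of 21145 genes (0.407%), and Per1 was the 1 member among them (F = 4.42, FDR 0.00226). With an unadjusted p under 0.05 there were 5 members, which were Per1, Ciart, Nr1d1, Nr1d2 and Per2. At that threshold there were also 5 of 10 early genes and 5 of 12 glucocorticoid-induced genes. Among output genes there were 4 of 16, and among the further clock genes 1 of 19. The share of all genes at this threshold is not given here, so the 5 members cannot be set against it. For Per1 the SD was 0.106 between mice and 0.0765 between eyes on the log2 scale, for Ciart 0.110 and 0.119, and for Nr1d1 0.0676 and 0.0881. For Arntl the estimate between mice was 0 and that between eyes was 0.0667, so that no variation between mice was detectable beyond that between eyes.

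Left and right eyes of a mouse correlated in Per1 with r = 0.582 (permutation p = 6.0e-05) and rho = 0.570 (permutation p = 0.00010) over 45 mice, and r was 0.581 without the 2 farthest mice. The relation of Per1 was present within batch 1 at day 2 (r = 0.643, 23 mice) and within batch 2 (r = 0.487, 11 mice). For Ciart r was 0.386 (permutation p = 0.00988) and rho 0.355 (p = 0.0172), and for Nr1d1 r was 0.350 (permutation p = 0.0216) and rho 0.454 (p = 0.00204). Within batch 2 (11 mice), r was 0.652 for Ciart and 0.0092 for Nr1d1. Per1, Ciart and Nr1d1 are 3 of 10 relations computed, the p-values are not adjusted over all genes, and the median r of all genes was −0.0569. For Arntl r was −0.0811 (permutation p = 0.592) and rho −0.234 (p = 0.123). A mouse effect was called in 0 of 19 further clock genes, 0 of 10 early genes, 1 of 16 output genes, which was Usp2, a clock-controlled protease (FDR 7.48e-06), and 2 of 12 glucocorticoid-induced genes, Fkbp5 (FDR 0.000102) and Zbtb16 (FDR 0.000193). It was also called in 1 of 5 rod markers, Sag (FDR 0.0423). In a split by sex made after the data had been seen, the mouse effect of Per1 had an FDR of 0.00876 in males and 0.827 in females, and the difference between the sexes was not tested. In the day 2 fit itself, 0 members differed between females and males in limma (0.363% of genes called, 1 member with an unadjusted p under 0.05).

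**Figure D3:**
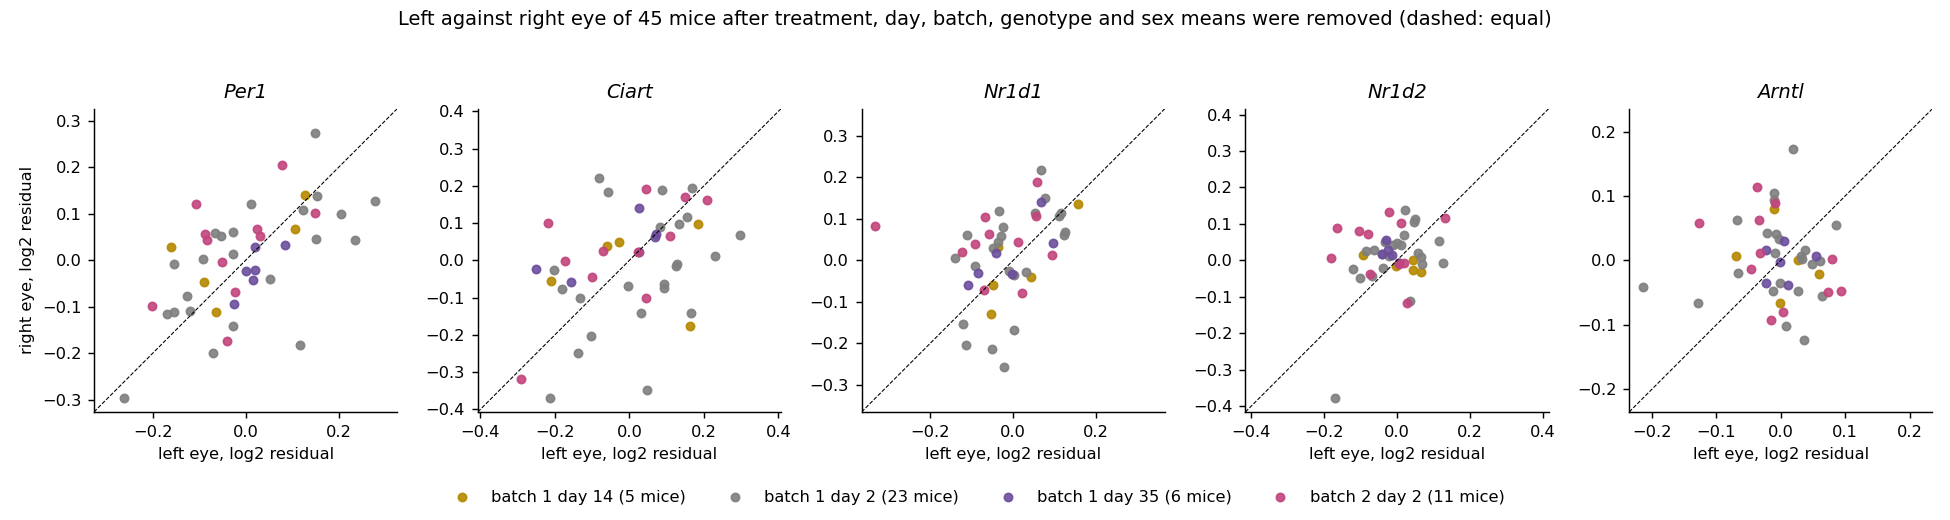
Left eye (x axis) against right eye (y axis) of 45 mice as log2 residuals after group and sex means were removed, for Per1, Ciart, Nr1d1, Nr1d2 and Arntl, with colours for batch and day and a dashed line of equality. Per1 points spread along the line (r = 0.582), and Arntl points do not (r = −0.0811).

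A single mouse gave a pair of PBS eyes, at day 14, and shows the size of the difference between eyes with the same injection. Its Arntl level was 97.5 CPM in the left and 103.8 CPM in the right eye, Per1 was 95.1 and 92.0 CPM, Per3 was 155.9 and 150.1 CPM, and Dbp was 86.2 and 76.5 CPM. PBS retinas were also compared by what the fellow eye had received at day 2, and 0 members and 0 of 19052 genes differed by the limma F test (0% of genes called, 0 members with an unadjusted p under 0.05), with Dbp closest (unadjusted p = 0.0507).

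The variation among the 31 PBS retinas of day 2 was examined next. The members did not vary as 1 block. The highest correlations between members were Per2 with Per3 (r = 0.726), Per3 with Ciart (0.697), Per2 with Ciart (0.671) and Cry2 with Nr1d1 (0.668), given as descriptions over retinas that share scaling and batch. Arntl and Dbp were the least like the others. The highest r of Dbp was 0.417, with Cry1, and that of Arntl was 0.421, with Nr1d1 (permutation p = 0.0180, adjusted p = 0.162 over 9 relations with Arntl; rho = 0.414, p = 0.0208), and r was 0.346 without the 2 farthest retinas. In limma, 0 members were related to Arntl at an FDR under 0.05, where 9.47% of 18156 genes were. The genes most like Arntl, among 15029 with a mean of at least 1 CPM, were Lrit2 (r = 0.735), Rimkla (0.727), Cnnm1 (0.707), Wdr66 (0.706) and Bbs1 (0.698). Those most unlike it were Efemp2 (r = −0.802), Swap70 (−0.798), Flna (−0.796), Rhbdf1 (−0.792) and Mapkapk3 (−0.783). Most genes related to Arntl were related negatively (1507 of 1719), and in the 24 other PBS retinas, with group means removed, 107 genes were related to it.

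Per1 was related to Per2 with r = 0.652 (permutation p = 8.0e-05) and rho = 0.672 (permutation p = 5.0e-05), and r was 0.628 without the 2 farthest retinas. This was 1 of 13 relations with Per1, chosen after the data had been seen, and its FDR over all genes in limma was 0.138. Cry1 followed the rod markers. With sex means removed, its r with the log2 of their summed level was 0.805 and rho was 0.750, each with a permutation p of 1e-05, the smallest these permutations can give, and r was 0.849 without the 2 farthest retinas. In limma its FDR was 1.95e-05, where 15.5% of 18152 genes were related to the rod markers. Nr1d1 was the other member related to them (r = 0.551, permutation p = 0.00135; rho = 0.584, p = 0.000850; limma FDR 0.0202), and r was 0.587 without the 2 farthest retinas. This relation too was chosen after the data had been seen, 10 members were examined, and in the 24 other PBS retinas 0 members were related to rod markers by limma.

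PBS retinas of day 35 had more transcript of the activator and of several repressors than those of day 2. At day 35, 7 of 10 members were higher than at day 2 in limma, where 32.8% of 19372 genes were called and 15.4% were higher, and the median log2 difference was 0.15 over the members and 0.00 over all genes. With library totals in place of TMM, 4 of the 7 (Arntl, Per1, Cry1 and Cry2) stayed called. Arntl had 86.8 to 106.6 CPM at day 2 (median 98.6), 97.5 to 109.1 CPM at day 14 (median 102) and 106.8 to 127.0 CPM at day 35 (median 115.7). Cry1 had 49.3 to 68.0 CPM at day 2 and 68.5 to 76.3 CPM at day 35 (median 70.4). For both genes all 6 day 35 retinas lay above all 31 day 2 retinas, which 0.712% of the genes tested did. The log2 difference was 0.26 for Arntl (SE 0.0372, limma FDR 9.4e-07) and 0.32 for Cry1 (SE 0.0533, limma FDR 8.7e-06).

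**Figure D4:**
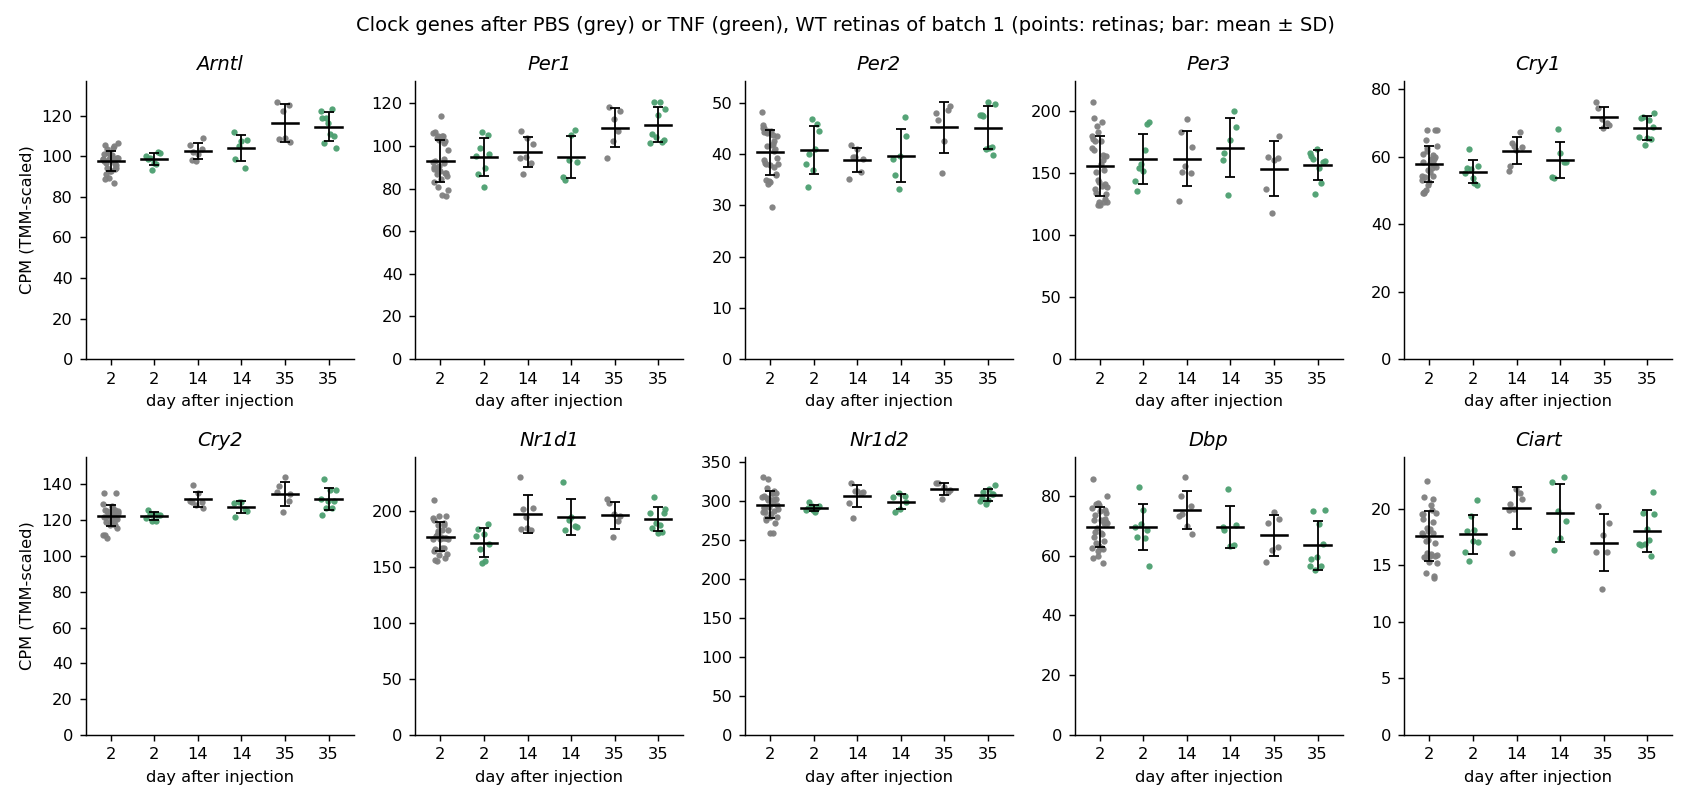
Level of each clock gene in CPM (y axis, from 0) in WT retinas of batch 1 after PBS (grey) or TNF (green) by day after injection (x axis), with mean ± SD as black bars. All 6 PBS retinas of day 35 lie above all 31 of day 2 for Arntl and Cry1, while Per3, Dbp and Ciart overlap.

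Per1 rose as well, from a median of 90.7 CPM to 109.8 CPM (94.4 to 118.6) at day 35, with a log2 difference of 0.23 (limma FDR 0.00331). Per2 (0.17, FDR 0.0430), Nr1d1 (0.15, FDR 0.00968), Cry2 (0.14, FDR 0.000533) and Nr1d2 (0.10, FDR 0.0294) were also higher by limma. The values of the remaining members were −0.02 for Per3 (FDR 0.928), −0.06 for Dbp (FDR 0.5257) and −0.05 for Ciart (FDR 0.719). At day 14, Nr1d1 (0.16, FDR 0.00835) and Cry2 (0.11, FDR 0.00727) were higher than at day 2 (19.2% of genes called, 8.68% higher). Between days 14 and 35, Arntl was the 1 member called by limma (0.18, FDR 0.0187; 4.25% of genes called), with Cry1 at 0.22 (FDR 0.0512). TNF retinas of day 35 had Arntl at 104.1 to 123.4 CPM (median 116.2) and Cry1 at 63.4 to 73.0 CPM (median 68.8), and both ranges overlapped those of PBS at that day.

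Different mice were collected at each day, so the day after injection, the age of the mice and the hour of collection cannot be told apart here. Cell markers moved too, and their part was not tested. At day 35 rod markers had a median of 49274 CPM against 41962 at day 2 (4 of 5 called higher), cone markers 998 against 784 CPM (3 of 4), amacrine markers 672 against 594 CPM (3 of 3) and RGC markers 546 against 453 CPM (3 of 5). Müller glia markers had 3114 against 2277 CPM, with 2 of 3 higher and Slc1a3 lower (log2 fold change −0.25, limma FDR 0.00294). On the lower side were microglia markers, with 17.9 against 45.04 CPM (4 of 4 lower), and neutrophil and monocyte markers, with 3.06 against 40.7 CPM (5 of 5). Of the 19 further clock genes, 4 were higher at day 35, where 32.8% of all genes were called in either direction, with Hlf at 0.25 and Clock at 0.13, and 2 were lower, with Timeless at −0.33. Of the output genes, 6 were higher, led by Adcyap1 (0.92), and 4 lower, led by Tspan4 (−0.46). Glucocorticoid-induced genes were split, with 4 higher, among them Sgk1 (0.34), and Mt2 lower (−1.53). Of the early genes, Dusp1 (0.46) was higher and Egr2 (−2.89), Junb (−1.71) and Fosb (−1.17) were lower.

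The experiment in batch 2 asked whether loss of Sarm1, a gene of the axon degeneration pathway, changed the response to IL1A+TNF. Sarm1 itself ranged from 76.4 to 136 CPM in WT retinas and from 26.2 to 53.2 CPM in Sarm1-/- retinas, so the labels and the counts went together, and its log2 difference was −1.41 in PBS retinas. Reads counted for Sarm1 were thus fewer in Sarm1-/- retinas but not absent. In PBS retinas 0 members differed between Sarm1-/- and WT in limma (0.0397% of 20154 genes called, 0 members with an unadjusted p under 0.05). Arntl had 93.5, 92.7, 98.8, 96.1 and 91.5 CPM in the 5 WT PBS retinas of batch 2, and 87.3 to 101.4 CPM in the 6 Sarm1-/- PBS retinas (median 94.1). Sarm1 lies on chromosome 11, as do Per1 and Nr1d1.

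In WT mice of batch 2, IL1A+TNF was tested in retinas that had not entered the first comparison. All 6 treated retinas lay below all 5 PBS retinas for Per2, Cry1, Cry2, Nr1d1 and Ciart, which 9.48% of the genes did. Cry1 had 53.0, 55.8, 56.7, 51.6 and 51.0 CPM in the PBS retinas and 38.1 to 45.4 CPM in the treated ones (median 43.2). Arntl had 80.2 to 91.9 CPM after IL1A+TNF (median 82.8), and 1 treated retina reached into the PBS range. In a limma fit of batch 2 alone, 5 members were called lower (20.7% of 19910 genes called). These were Cry1 (−0.34, FDR 0.000176), Nr1d1 (−0.36, FDR 0.00242), Ciart (−0.41, FDR 0.00906), Arntl (−0.20, FDR 0.00950) and Per2 (−0.43, FDR 0.0143). In the fit of both batches all 10 members were lower in WT retinas after IL1A+TNF (54.8% of genes called, 27% lower), and this fit shares the retinas of the first comparison. Between batches, Cry1 was the 1 member that differed (−0.16 in batch 2, limma FDR 0.00284; 14.4% of genes called).

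Of the 6 Sarm1-/- IL1A+TNF retinas, 2 (replicates 4 and 5) stood apart in inner retinal markers, and replicate 5 also had 5250 CPM of lens markers, against 0.944 CPM in replicate 4 and at most 442 CPM in the other 4. With the lower value given first, their RGC markers summed to 65.6 and 81.2 CPM against 203 to 447 CPM in the other 4, their amacrine markers to 98.7 and 98.9 CPM against 404 to 558, and their bipolar markers to 275 and 290 CPM against 837 to 1141. Rod markers were not low in them (21556 and 25132 CPM against 19233 to 40619). Of the 10 clock genes, 6 did not overlap between these 2 retinas and the other 4, a share near the 53.5% of all genes that did not. In these 2 retinas Arntl was 104 and 106 CPM against 85.3 to 94.998 CPM in the other 4, while Per3 was 81.4 and 86.8 CPM against 128 to 153, Cry2 was 61.3 and 63.5 CPM against 97.7 to 125, and Dbp was 29.1 and 34.6 CPM against 51.2 to 73.0. Per2 and Nr1d2 were also lower there, and Per1, Cry1, Nr1d1 and Ciart overlapped.

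**Figure D5:**
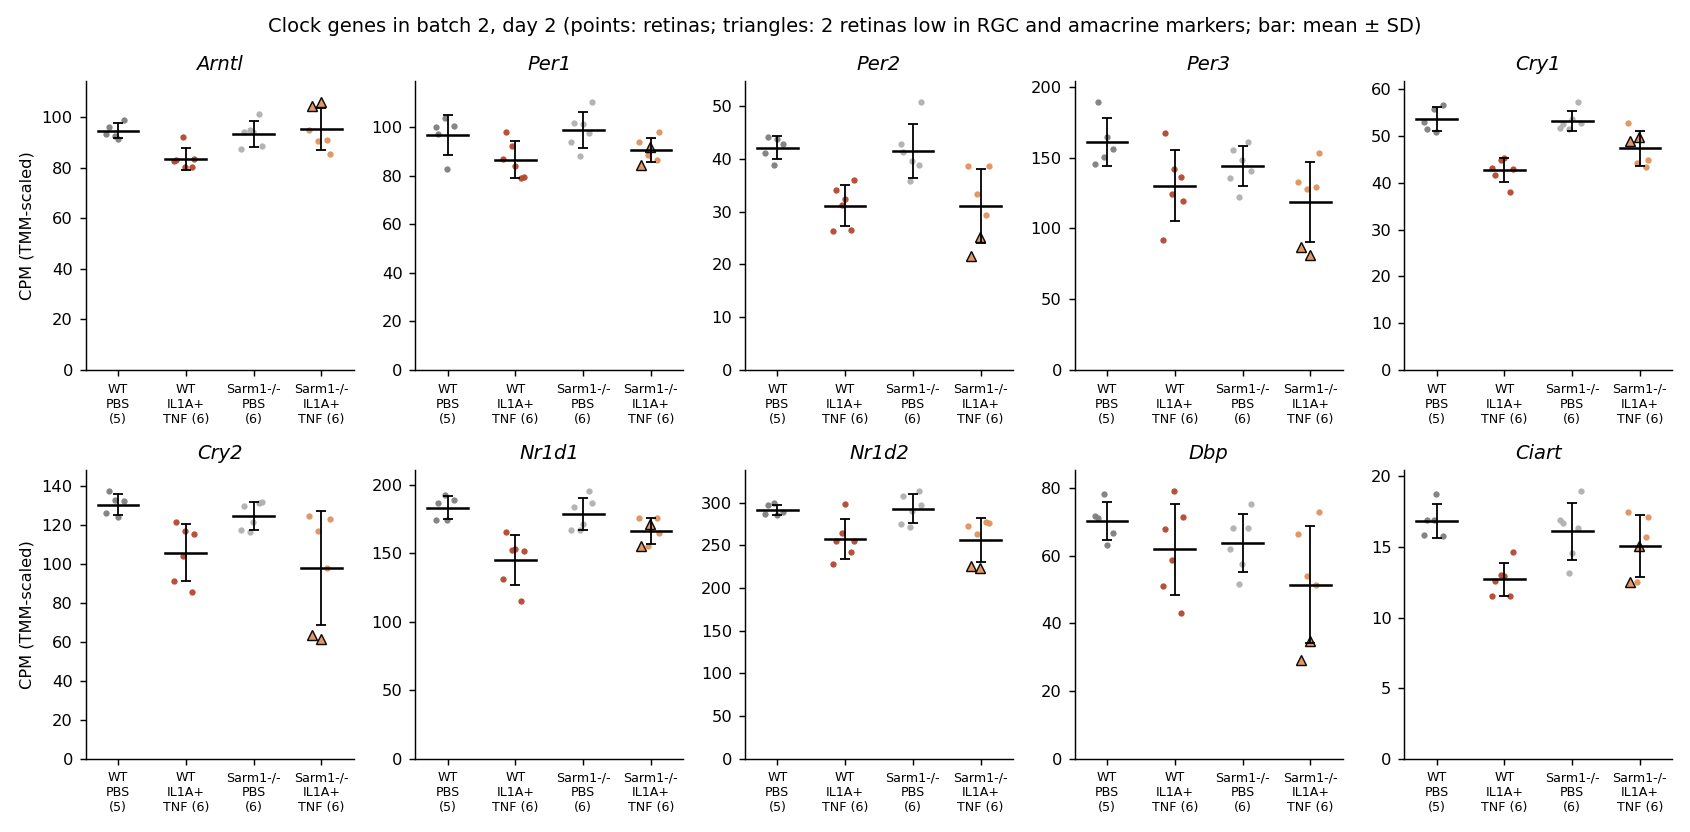
Level of each clock gene in CPM (y axis, from 0) in batch 2 retinas by genotype and treatment (x axis, number of retinas in parentheses), with mean ± SD as black bars and triangles for the 2 Sarm1-/- IL1A+TNF retinas low in inner retinal markers. These 2 are the highest of their group for Arntl (104 and 106 CPM) and the lowest for Per2, Per3, Cry2, Nr1d2 and Dbp.

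With all retinas, 6 members fell after IL1A+TNF in Sarm1-/- mice in limma (43.5% of genes called, 22.2% lower), which were Per2 (−0.43, FDR 0.000150), Cry2 (−0.40, FDR 7.9e-05), Dbp (−0.36, FDR 0.0124), Per3 (−0.30, FDR 0.0472), Nr1d2 (−0.19, FDR 0.00374) and Cry1 (−0.16, FDR 0.0324). Arntl had 85.3 to 105.8 CPM after IL1A+TNF (median 92.9) and a log2 fold change of 0.04 (SE 0.0465, limma FDR 0.555). Cry1 was the 1 member of the 6 that stayed called without the 2 retinas (−0.21, FDR 0.0420). With each of 12 mice left out in turn, the Cry1 call was lost without the mouse of Sarm1-/- IL1A+TNF replicate 3 (FDR 0.138). That of Per3 was lost without this mouse or either mouse of the 2 retinas (−0.40 to −0.21, FDR up to 0.269). That of Dbp was lost without either mouse of the 2 retinas (−0.47 to −0.21, FDR up to 0.217).

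The genotypes differed in the response of Arntl when all retinas were used. The interaction of genotype and IL1A+TNF was 0.21 (SE 0.0529, limma FDR 0.0136), the only one called among the members (8.75% of genes called), and that of Ciart was 0.28 (FDR 0.0758). Without the 2 retinas the Arntl interaction was 0.13 (FDR 0.324), with batch 2 alone it was 0.23 (FDR 0.816), and leaving out either of the 2 mice also ended the call. Among IL1A+TNF retinas, Sarm1-/- was above WT for Arntl (0.20, FDR 0.00205), Ciart (0.24, FDR 0.0410) and Nr1d1 (0.18, FDR 0.0344) and below it for Dbp (−0.31, FDR 0.0459) in limma (14.8% of genes called), and without the 2 retinas 0 members were called, with Arntl at 0.12 (FDR 0.189). The calls of Nr1d1 and Ciart were each lost without any of 10 of the 12 mice left out in turn, and that of Dbp without any of 6, with its value between −0.44 and −0.19.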

How the data were processed

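Read pairs were mapped by the authors to mm10 with STAR 2.7.9a and counted per gene with featureCounts (Subread 2.0.1), and the deposited counts are raw. The annotation release and strand setting were not given in the sources used here. Members and lists were chosen with earlier results of these data known.

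In R 4.3.3, counts were filtered with filterByExpr (minimum count 10, minimum total 15), scaled with TMM (edgeR 4.0.16) and tested with limma 3.58.1 on voom weights, with sex (and batch for the Sarm1-/- experiment) as covariate and mouse as a random block through duplicateCorrelation (2 rounds). PBS retinas of different days had no block. P-values were adjusted by Benjamini-Hochberg over all genes tested and measure the spread between these retinas. Mouse numbers in the labels pair the eyes, and replicate numbers pair nothing. Correlations used log2 CPM with a prior count of 2 and 100000 permutations. Alternatives were edgeR's quasi-likelihood test, DESeq2 1.42.0, no filter, library totals in place of TMM, other blocks, batch 2 alone and each mouse left out. Named genes are the members, at most 6 called genes of each list by size of change, and the 5 most and 5 least like Arntl. Symbols and positions came from GRCm38 gene models (35449 of 37315 genes matched), and promoter windows from RefSeq on GRCm38.p6. A few called genes are not reported here. Each test was tried on simulated data.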

Additional observations from a re-analysis of the deposited data

Results flagged for a closer look

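A single retina lay far from the others of its group in 5 of 110 pairs of a member and a group, where chance alone would flag about 1 pair in 20. In TNF retinas of day 14, Nr1d1 was 226.4 CPM in replicate 1, and the next highest was 194.6 CPM. In PBS retinas of day 14, Ciart was 16.1 CPM in replicate 7, and the next lowest was 19.9 CPM. Nr1d2 was 204.2 CPM in IL1A+TNF replicate 2 of day 2, and the next lowest of those 10 retinas was 261 CPM. Cry1 was 41.8 CPM in IL1A replicate 8 of day 2, and the next lowest was 47.9 CPM. In batch 2, Arntl was 91.9 CPM in WT IL1A+TNF replicate 2, and the next highest was 83.4 CPM.

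The response of Arntl to IL1A+TNF differed between genotypes, with an interaction of 0.21 on the log2 scale (limma FDR 0.0136) when all retinas were used. In Sarm1-/- mice Arntl was lower in the treated eye of 3 of 6 mice, and in WT mice of batch 2 in 5 of 5. The interaction was 0.13 (FDR 0.324) without the 2 Sarm1-/- retinas that were low in RGC, amacrine and bipolar markers, and the part of those markers was not tested.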

How the results depend on the processing

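No call of a member changed its direction under the alternatives run. Over 64 results of members and 816 values under alternatives, 674 stayed on their side of the threshold and 142 called values fell short of it. Among the settings that changed the count of members called were the following, and the cause was not tested. With library totals in place of TMM it was 7 for IL1A+TNF at day 2 (10), 4 for IL1A+TNF in Sarm1-/- (6), 2 for IL1A at day 2 (7), 4 for PBS day 35 against day 2 (7), 1 for IL1A within mice (3) and 1 for the relation to rod markers (2), with the main count in parentheses. Without the filter it was 4 for IL1A at day 2 and 2 for Sarm1-/- against WT after IL1A+TNF (4). With edgeR and with DESeq2 it was 2 for PBS day 35 against day 14 (1) and 1 for Sarm1-/- against WT after IL1A+TNF. With batch 2 alone it was 1 for that comparison, 4 for IL1A+TNF in Sarm1-/-, 5 for IL1A+TNF in WT (10) and 0 for the interaction (1). In alternatives chosen after seeing the data, leaving out retinas with lens transcripts gave 2 for Sarm1-/- against WT after IL1A+TNF and 0 for the interaction. Leaving out the 2 retinas low in inner retinal markers gave 0, 1 for IL1A+TNF in Sarm1-/- and 0 for the interaction. The mouse effect held 0 members in females and 3 in males (1 in all), and the 24 other PBS retinas gave 0 members related to rod markers.

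With each mouse left out in turn, the count was 8 to 10 for IL1A+TNF at day 2, 3 to 7 for IL1A, 0 to 5 for Sarm1-/- against WT after IL1A+TNF, 4 to 6 for IL1A+TNF in Sarm1-/-, 9 to 10 in WT of both batches, 0 to 1 for the interaction and 0 to 0 for TNF at each day. Without the mouse block the count was 10 for IL1A+TNF at day 2, 5 for IL1A, 4 for Sarm1-/- against WT after IL1A+TNF, 6 for IL1A+TNF in Sarm1-/-, 10 in WT of both batches, 1 for the interaction, 1 between batches, and 0 for TNF at each day, for genotype in PBS retinas and for sex. With mouse as a fixed block it was 0 for TNF at days 14 and 35.

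Counts over all genes moved more. After TNF at day 2 edgeR called 242 genes and DESeq2 268 (128 in limma), and 0 were called without lens retinas. TNF at day 35 had 6 with a fixed block (0). PBS day 35 against day 14 had 1541 with DESeq2 (823). Genotype in PBS retinas had 2 with batch 2 alone (8), and after IL1A+TNF 1195 with edgeR, 1595 with DESeq2, 127 with batch 2 alone, 1559 without lens retinas and 184 without the 2 retinas (2988). The interaction had 181, 430, 0, 631 and 0 under the same settings (1763). IL1A+TNF had 2655 in Sarm1-/- without the 2 retinas (8768) and 4117 in WT with batch 2 alone (11043). Without lens retinas batch had 1887 (2897) and sex 47 (71). The mouse effect had 35 in females and 550 in males (86), TNF within mice 4 without the filter (22), and in the 24 other PBS retinas 107 genes were related to Arntl (1719) and 370 to rod markers (2820).

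Depth limited little, since the lowest count of a member in a retina was 449, for Ciart.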

Other observations

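The lists around the clock were also counted in the comparisons not given above. After IL1A alone, where 21.4% of all genes were called and 9.45% were lower, 2 of 19 further clock genes were higher, with Timeless at 0.17 on the log2 scale, and 3 were lower, Rorb (−0.23), Hlf (−0.17) and Bhlhe41 (−0.09). Of 16 output genes 0 were higher and 3 lower, Klf9 (−0.13), Noct (−0.10) and Por (−0.09). Of 12 glucocorticoid-induced genes, 2 were higher, Mt2 (1.09) and Cdkn1a (0.45), and 3 were lower, Sult1a1 (−0.27), Sgk1 (−0.18) and Klf9, which both lists hold. Egr2 (2.29) was the 1 early gene of 10 that was higher, and 0 were lower. After TNF alone at day 2, limma called 0 genes of these 4 lists.

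Within mice given IL1A+TNF, Rorb (−0.64), Rora (−0.29), Btrc (−0.28), Hlf (−0.27) and Bhlhe41 (−0.18) were lower in the treated eye and Timeless (0.35) higher. In the interaction of genotype and IL1A+TNF, where 8.75% of all genes were called, the called genes of these lists were Hlf (−0.60), Adcyap1 (−0.82), Rgs16 (0.48), Tsc22d3 (−0.38) and Ddit4 (0.33), with the 2 Sarm1-/- retinas low in inner retinal markers included.

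Among the 31 PBS retinas, Per1 was also related to Usp2 (r = 0.582, permutation p = 0.000630; rho = 0.554, p = 0.00155), and r was 0.536 without the 2 farthest retinas. This was 1 of 13 relations with Per1, and its FDR over all genes in limma was 0.219, where 0 of 18156 genes were called.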
